A study of Homo sapiens with 4 samples.

Results

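The comparison described here asked what the genome-wide pattern of phosphorylated H2AX looked like when doxorubicin was added to OTS186935, an inhibitor of the histone methyltransferase SUV39H2, in SK-UT-1 cells. SK-UT-1 is an established line of uterine leiomyosarcoma, a smooth muscle cancer. The study made 4 γH2AX ChIP-seq libraries, 1 per condition. The conditions were the vehicle, DMSO at 0.1%, then OTS186935 at 1 µM, then doxorubicin at 0.5 µM, and both drugs at these doses, called the combination below. The series title names a PARP inhibitor beside the SUV39H2 inhibitor, whereas the sample labels name doxorubicin, and the labels were followed. The treatment time is not given in the sources used here, nor whether the cultures were separate. The compared pair was the combination and OTS186935 alone, so both libraries carried the inhibitor and the combination differed from its partner by doxorubicin. Members were all deposited peaks on chromosomes 1 to 22 and X, with overlapping or touching rows merged within each list. That gave 59710 OTS186935 peaks and 29213 combination peaks, which joined into 73489 regions, of 123975 regions formed by the 4 libraries together. With 1 library a side there was no replicate error and no test. Intervals below are exact 95% intervals that cover counting error only, and each peak value is that of a single library.

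H2AX is a histone variant that is phosphorylated on its tail by the kinases ATM, ATR and DNA-PK around DNA double-strand breaks and stalled replication forks, and the phosphorylated form, γH2AX, recruits repair proteins. Doxorubicin intercalates into DNA and traps topoisomerase II on it, which leaves double-strand breaks, and it also evicts histones from chromatin. SUV39H2 adds methyl groups to lysine 9 of histone H3, the mark of heterochromatin, which is dense near centromeres and telomeres. The deposited lists hold γH2AX peaks and no expression values, so the smooth muscle identity of the cells was not checked against marker RNA.

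The sequences shown first are those under promoter peaks of high fold of each kind. They let a shared site, a site seen with OTS186935 alone and a site seen with the combination be compared. A promoter was the 250 bases before and 50 bases after an annotated start, and the 250 upstream bases are printed, from RefSeq (GRCh38.p14), 5′ to 3′ on the gene's strand, with every CG dinucleotide in capitals. They were chosen after the values were seen, from high folds in each kind among peaks that covered at least 100 of the printed bases. TDRD15, named below, had higher folds at its 5′ end in both libraries (7.97 and 8.01) and is not printed. For the last 2 kinds, no peak of the other library lay within 1 kb of either end of the gene.
PABPC5: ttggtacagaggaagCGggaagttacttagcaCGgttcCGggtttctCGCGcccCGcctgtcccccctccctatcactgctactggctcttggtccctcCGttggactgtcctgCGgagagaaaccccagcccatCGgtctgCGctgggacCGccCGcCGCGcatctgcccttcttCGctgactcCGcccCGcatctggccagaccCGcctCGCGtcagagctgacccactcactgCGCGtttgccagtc
BRINP1: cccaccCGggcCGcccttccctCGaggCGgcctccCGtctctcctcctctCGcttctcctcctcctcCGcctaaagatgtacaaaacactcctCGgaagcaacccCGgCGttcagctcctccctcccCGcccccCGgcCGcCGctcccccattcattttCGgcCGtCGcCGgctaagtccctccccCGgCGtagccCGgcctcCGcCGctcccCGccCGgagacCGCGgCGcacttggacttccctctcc
SCAND3: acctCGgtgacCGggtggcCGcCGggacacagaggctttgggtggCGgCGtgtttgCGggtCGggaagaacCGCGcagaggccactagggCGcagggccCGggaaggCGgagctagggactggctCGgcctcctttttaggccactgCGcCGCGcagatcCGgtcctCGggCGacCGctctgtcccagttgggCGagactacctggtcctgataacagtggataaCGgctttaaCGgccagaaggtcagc
COX8C: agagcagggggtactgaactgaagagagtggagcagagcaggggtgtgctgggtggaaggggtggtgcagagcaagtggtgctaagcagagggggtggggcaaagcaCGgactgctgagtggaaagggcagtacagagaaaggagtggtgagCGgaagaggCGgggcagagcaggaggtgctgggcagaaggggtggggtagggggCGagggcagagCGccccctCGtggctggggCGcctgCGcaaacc
CTAGE1: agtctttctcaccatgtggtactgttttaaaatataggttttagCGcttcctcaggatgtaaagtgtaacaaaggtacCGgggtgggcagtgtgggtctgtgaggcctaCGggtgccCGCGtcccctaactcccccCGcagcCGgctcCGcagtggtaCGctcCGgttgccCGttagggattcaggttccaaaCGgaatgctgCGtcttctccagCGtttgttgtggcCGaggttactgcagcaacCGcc
GTSF1: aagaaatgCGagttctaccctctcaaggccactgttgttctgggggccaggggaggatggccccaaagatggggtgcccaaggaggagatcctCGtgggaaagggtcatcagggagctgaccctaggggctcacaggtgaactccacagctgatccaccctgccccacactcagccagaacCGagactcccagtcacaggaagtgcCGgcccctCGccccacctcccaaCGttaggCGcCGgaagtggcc

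PABPC5, a gene of the poly(A)-binding protein family (chrX:91434589-91434838, plus strand), and BRINP1, which encodes a protein of the nervous system (chr9:119369436-119369685, minus strand), had a promoter peak in both libraries. At PABPC5 the fold over local background was 8.32 in DMSO, 7.14 with OTS186935, 6.22 under doxorubicin and 7.60 in the combination. At BRINP1 it was 5.71, 7.01, 5.74 and 7.70 in the same order, so the 4 libraries lay within a narrow range at both promoters.

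SCAND3, a SCAN domain gene of the extended MHC region (chr6:28616203-28616452, minus strand), and COX8C, a testis form of a cytochrome c oxidase subunit (chr14:93346932-93347181, plus strand), had a promoter peak with OTS186935 and none with the combination. SCAND3 had a fold of 9.47 with DMSO, 10.3 with OTS186935 and 7.48 with doxorubicin. COX8C had 7.11, 10.0 and 7.67. Both were therefore listed in each library except the combination.

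CTAGE1, a tumour antigen gene (chr18:22417916-22418165, minus strand), and GTSF1, a germline gene of the piRNA pathway (chr12:54473603-54473852, minus strand), had the opposite pattern. CTAGE1 had a fold of 8.31 with the combination and no peak in the other libraries. Near-identical copies of CTAGE1 exist, so the placing of its reads is uncertain. GTSF1 had 6.11 with the combination and 4.10 with DMSO, and no peak with either drug alone.

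The printed stretches held 22 CG dinucleotides at PABPC5, 28 at BRINP1, 24 at SCAND3, 8 at COX8C, 16 at CTAGE1 and 8 at GTSF1. Over the 250 upstream bases of all 15812 promoters, 96.9% held at least 1 CG and the median was 17. Over the whole promoter window, the median CG count was 22 in promoters with a peak in both libraries, 21 with OTS186935 only and 20 with the combination only, beside 22 over all promoters, so the 3 kinds differed little.

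Depth was similar for the compared pair as far as the lists show it. The commonest local background, taken to scale with depth, was 0.397 fragments with OTS186935 and 0.428 with the combination. That gave an estimated 3.32 M and 3.90 M fragments. The estimate uses each list's shortest row, 323 and 296 bp, as the fragment length, so part of the gap comes from that difference. Over the 4 libraries the estimate ran from 3.32 M to 3.90 M. The combination list was the shorter although its estimated depth was the higher. The share of rows at that lowest background was 29.9% with OTS186935 and 15.9% with the combination, so more combination peaks sat in surroundings above the floor. The part these differences play in the results was not tested.

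With doxorubicin added, the list held fewer and narrower γH2AX peaks, and fewer strong ones. Peaks are scored over their local background, so these counts do not give the total amount of γH2AX in either library. The typical peak differed little in fragments or fold. The median summit was 7 fragments in both lists, and the median fold was 4.30 with OTS186935 and 4.20 with the combination. The median −log10 q was 2.98 and 2.59. There were 48.9 combination peaks per 100 OTS186935 peaks (48.2 to 49.6). Among strong peaks, meaning a −log10 q of at least 5, the numbers were 10592 with OTS186935 and 2475 with the combination, or 23.4 per 100 (22.4 to 24.4). At a −log10 q of at least 10 there were 724 and 36 peaks, and at 20 or more 87 and 0. By −log10 q, the highest-ranked peaks were thus reduced in number more than the list as a whole. The −log10 q is adjusted within each list, so a limit of 5 did not ask for the same evidence in both. With 10 summit fragments, the peak at RPS19 had 5.97-fold and a −log10 q of 5.47 with OTS186935. The combination peak at SYT1, also with 10, had a higher fold, 6.11, but a lower −log10 q, 5.04. The part this plays in the strong-peak counts and ratios, here and below, was not tested. Peaks covered 31.1 Mb with OTS186935 and 13.2 Mb with the combination. Median width was 448 and 397 bp, beside a shortest listed row of 323 and 296 bp, a difference in the 2 lists' minimum that was not corrected for. Peaks built from several overlapping rows made up 3.34% of the OTS186935 list and 1.14% of the combination list.

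The 2 lists overlapped in part. Of the joined regions, 15315 (20.8%) were in both libraries, 44374 (60.4%) with OTS186935 only and 13800 (18.8%) with the combination only. Of OTS186935 peaks, 15335, or 25.7% (25.3 to 26.0), overlapped a combination peak by at least 1 bp. Of combination peaks, 15412, or 52.8% (52.2 to 53.3), overlapped an OTS186935 peak. The lists are of unequal length: with the OTS186935 list cut by −log10 p to the length of the other, the shares were 35.8% and 36.0%. Limited to strong peaks on both sides, 8.25% of OTS186935 peaks and 35.3% of combination peaks were shared.

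Stronger and wider OTS186935 peaks overlapped a combination peak more often. The share was 13.03% of OTS186935 peaks at a −log10 q of 1 to 2, 19.3% at 2 to 3, 29.5% at 3 to 5, 44.9% at 5 to 10, 65.3% at 10 to 20 and 87.4% (76 of 87) at 20 or more. By width it went from 13.04% in the narrowest quintile (323 to 362 bp) to 46.7% in the widest (644 to 2718 bp). Width and strength each went with overlap: peaks of −log10 q 5 or more but no wider than the list's median were shared in 27.0%, wider ones below that −log10 q in 29.8%, and wider ones above it in 56.5%. Combination peaks followed the same order, from 43.7% at a −log10 q of 1 to 2 to 83.3% (30 of 36) at 10 to 20, and from 34.8% in their narrowest quintile to 78.9% in their widest.

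**Figure D1:**
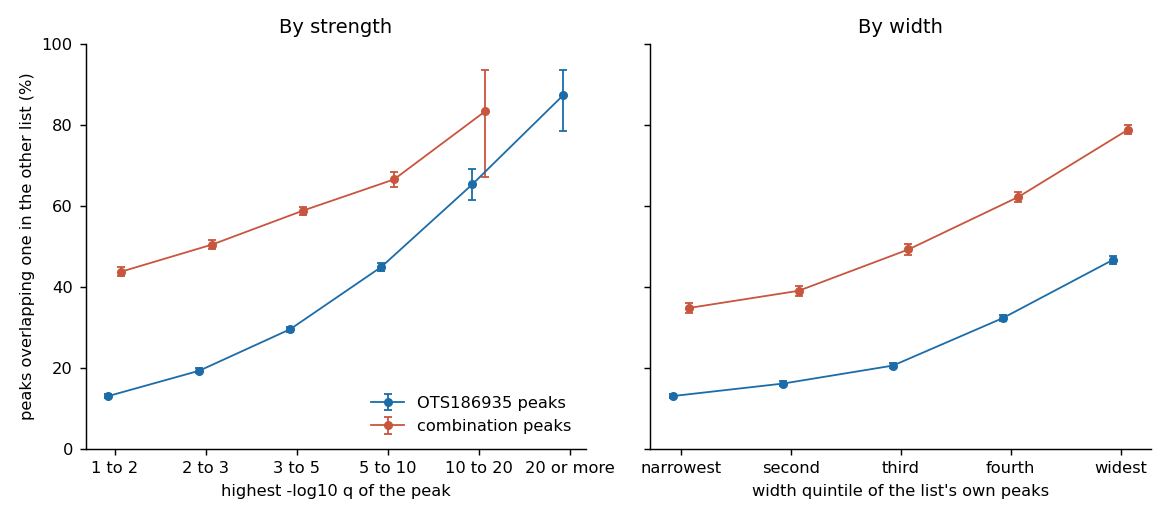
Share of peaks that overlapped a peak of the other list, by the peak's −log10 q (left) and by quintiles of its width (right), for OTS186935 peaks (blue) and combination peaks (red), with exact 95% intervals of counting error. Both lines climb in both panels, from 13.03% to 87.4% of OTS186935 peaks by strength.

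Where a peak was called in both libraries, it was usually narrower with the combination. Over 15335 OTS186935 peaks, each paired with an overlapping combination peak, the median width was 555 bp with OTS186935 and 449 bp with the combination, and the combination peak was the narrower in 70.5%. Fragments at the summit, derived from each row's fold and −log10 p, had a median of 9 and 8. The combination summit was lower in 55.9% of pairs, equal in 12.9% and higher in 31.3%. One-sided peaks were narrower than shared ones in both lists, with medians of 425 bp in OTS186935 and 362 bp in the combination. Their median summits were 7 and 6 fragments, so most one-sided peaks rested on few fragments.

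Shared regions were mostly present with DMSO as well. Of OTS186935 peaks that the combination also had, 80.7% overlapped a DMSO peak and 64.6% a doxorubicin peak. Of those seen with OTS186935 and not with the combination, 45.2% overlapped a DMSO peak and 27.8% a doxorubicin peak. For combination-only peaks the shares were 35.9% and 23.2%, and 54.5% (53.7 to 55.3) overlapped neither. Combination-only peaks therefore had the smallest overlap with the other lists of these classes, at a median summit of 6 fragments. They also lay near OTS186935 peaks: 9.52% were within 1 kb of one without touching it and 50.1% within 10 kb, distances within which 4.87% and 29.4% of the genome lay. Of OTS186935-only peaks, 3.85% were within 1 kb of a combination peak and 29.1% within 10 kb, where 2.34% and 16.9% of the genome lay. These genome shares take in stretches that hold no peak, and the lists crowded into the same 1 Mb bins. Closeness beyond that common crowding was not tested.

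The strongest OTS186935 peaks stood at the ends of chromosomes, and there the combination had fewer fragments. Subtelomeric sequence lies beside the telomere repeats and is rich in genes and in segments duplicated between chromosomes. Within 0.5 Mb of the ends, taken as the first base and the highest coordinate in the files, the median summit was 22 fragments in DMSO, 20 with OTS186935, 16 under doxorubicin and 12 in the combination. Elsewhere the medians were 8, 7, 6 and 7. The local background in the outermost 0.5 Mb was also lower, with a median of 3.97 fragments with OTS186935 and 2.13 with the combination, against 0.615 and 0.741 elsewhere. Thus both the summits and their surroundings held fewer fragments at chromosome ends in the combination, whereas elsewhere its background was the higher of the pair.

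Of 87 OTS186935 peaks whose −log10 q was at least 20, 81 (93.1%, 85.6 to 97.4) lay within 0.5 Mb of a chromosome end. So did 106 of 116 such peaks (91.4%) in DMSO and 13 of 14 (92.9%) under doxorubicin. Of the 87 OTS186935 peaks, 76 overlapped a combination peak. In those 76 pairs the median summit was 47.5 fragments (26 to 92) with OTS186935 and 19 (8 to 33) with the combination, and the combination was lower in 76 of 76. Choosing peaks by their OTS186935 strength favours that direction, so the reverse choice is given too. Of the 36 combination peaks whose −log10 q reached 10, 18 lay within 0.5 Mb of an end, and the strongest of them, chr1:16618787-16619189, was 16.6 Mb from one. The 30 pairs in which the combination peak was that strong had medians of 34.5 fragments with OTS186935 and 20.5 with the combination, lower with the combination in 21 of 30.

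The difference at single sites is given for the 4 pairs of highest OTS186935 −log10 q, a choice that favours lower combination values. At chr2:90676-91484, outside genes with FAM110C the nearest at 44.2 kb, the summit held 72 fragments (12.4-fold) with OTS186935 and 26 (10.1-fold) with the combination. At chr11:135055483-135057059, near the end of the long arm, it held 60 and 22. At chr7:159211640-159212215 it held 57 and 11, and at chr2:18874-19377 it held 54 and 12. The fold differed less than the fragments at all 4 sites, falling from 13.7 to 8.75 at the second, 14.2 to 5.05 at the third and 14.1 to 7.105 at the last. Over the 76 pairs the median fold was 9.496 with OTS186935 and 5.83 with the combination, and the median local background was 3.92 and 1.94 fragments.

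The lower summits were found at each end that had peaks. Of 40 chromosome ends with a peak in the outermost 0.5 Mb, all 40 had fewer combination than OTS186935 peaks and a lower highest summit with the combination. The end of chromosome 11 had 67 OTS186935 and 44 combination peaks, of which 62 and 17 were strong. The end of chromosome 18 had 73 and 46 peaks and highest summits of 91 and 26 fragments. The start of chromosome 16, where the alpha-globin genes lie, had 40 and 7 peaks, and the start of chromosome 19 had 29 and 6. In number of peaks, the outermost 0.5 Mb as a whole did not stand apart, with 49.9 combination peaks per 100 OTS186935 peaks (45.8 to 54.4), and 39.2% of its OTS186935 peaks overlapped a combination peak. From 0.5 to 1 Mb the ratio was 42.1 (38.1 to 46.5) and beyond 50 Mb it was 51.2 (49.7 to 52.8). Strong peaks differed more by position, with 17.9 per 100 in the outermost 0.5 Mb, 11.6 from 0.5 to 1 Mb and 32.2 beyond 50 Mb. The treatment of reads matching several places is not given in the sources used here, so peaks in duplicated end sequence are uncertain in their position.

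**Figure D2:**
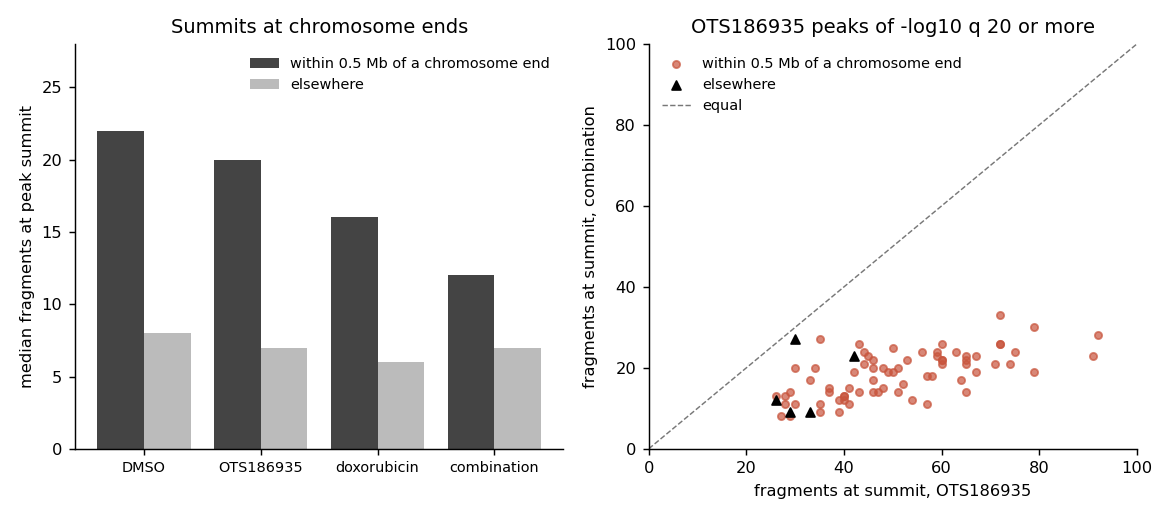
Left, median fragments at the summits of peaks within 0.5 Mb of a chromosome end and elsewhere, in the 4 libraries, 1 library each. Right, summit fragments with OTS186935 (x axis) and with the combination (y axis) for the 76 overlapping pairs in which the OTS186935 peak had a −log10 q of at least 20. All 76 points lie below the dashed line of equal values, with medians of 47.5 and 19.

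Peaks seen on 1 side lay at chromosome ends less often than shared ones. Within 0.5 Mb of an end were 2.16% (2.03 to 2.303) of OTS186935-only peaks and 1.10% (0.934 to 1.29) of combination-only peaks, beside 4.03% of shared OTS186935 and 4.13% of shared combination peaks. The 6 OTS186935-only peaks of highest −log10 q were all within 0.5 Mb of a chromosome end. They included chr20:64254443-64255416, just before the methyltransferase-domain gene PCMTD2, with 44 fragments (11.7-fold), and chr4:256433-256998, with 28 fragments (14.7-fold). All 6 overlapped peaks in both the DMSO and the doxorubicin library. The 6 combination-only peaks of highest −log10 q were 28.6 Mb or more from an end and had summits of 13 to 17 fragments. They included chr7:91463386-91463717 (11.5-fold), outside genes with the Wnt receptor gene FZD1 nearest, and peaks inside CRIM1, which encodes a membrane protein that binds bone morphogenetic proteins (9.51-fold), and MYBPC1, a muscle myosin-binding protein gene (9.33-fold). Those 6 were all also called with doxorubicin, and 5 of the 6 with DMSO.

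Gene density set apart the strong peaks from the weak ones. In 1 Mb bins with no protein-coding gene there were 51.2 combination peaks per 100 OTS186935 peaks (47.8 to 54.8), and in bins with 20 or more genes there were 43.1 (41.6 to 44.6). Bins of 1 to 4, 5 to 9 and 10 to 19 genes had 52.1, 51.7 and 46.1. For strong peaks the ratio was 43.6 per 100 without genes and then 31.8, 22.2, 18.8 and 14.4 as density went up. For weak peaks, with a −log10 q below 2, it ran the other way, from 29.0 through 40.7, 51.0 and 52.8 to 58.2. The intervals of the lowest and highest density class did not overlap in any of the 3 series. The weakest peaks of the 2 lists met unlike limits: the lowest −log10 p was 2.81 with OTS186935 and 3.08 with the combination. The OTS186935 list held peaks of 3 fragments, as at ZNF208 (−log10 q 1.15). The part these limits play in the weak-peak ratios was not tested. The strong-peak ratios rest on a −log10 q limit that also differed in meaning between the lists, as given above.

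As listed, the 2 libraries differed in how strength went with gene density. The median −log10 q and the share of strong peaks both depend on each list's own limits. Neither was recomputed at a common limit. Combination peaks had a median −log10 q of 3.24 in bins without genes and 2.41 in bins with 20 or more genes, while OTS186935 peaks had 2.87 and 2.91. Strong peaks made up 16.1% of combination peaks in bins without genes and 5.46% in the densest bins, against 18.95% and 16.3% in the OTS186935 list. The local background under OTS186935 peaks had medians of 0.397 in the first class and 1.36 in the last, and under combination peaks 0.445 and 1.26. The share of OTS186935 peaks that overlapped a combination peak was 28.9% (27.1 to 30.8) in bins without genes and 23.5% (22.7 to 24.3) in the densest. Doxorubicin against DMSO, a pair that shares no library with this one, had 71.3 and 58.5 peaks per 100 in the same classes, and 35.4 and 20.9 for strong peaks. With lists of equal length the ratio for all peaks was 104 in bins without genes and 91.0 in the densest.

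**Figure D3:**
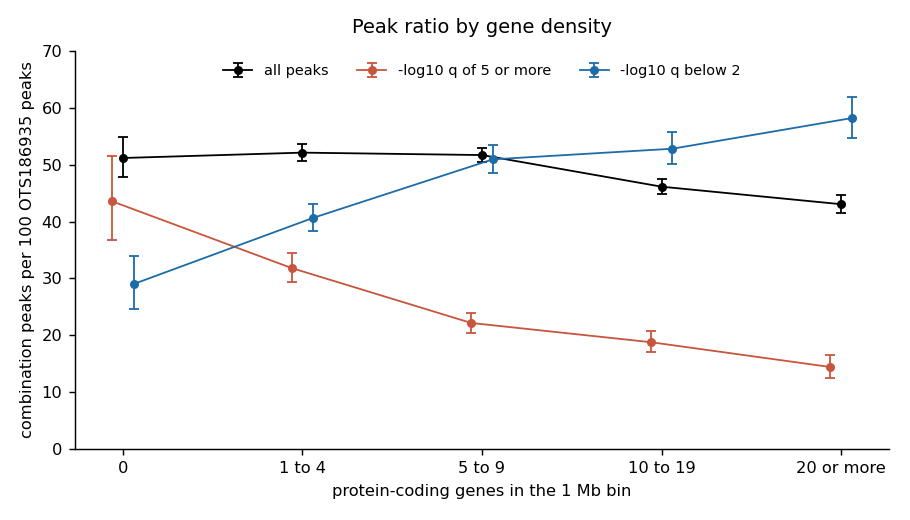
Combination peaks per 100 OTS186935 peaks in 1 Mb bins grouped by their number of protein-coding genes, for all peaks (black), strong peaks (red) and weak peaks (blue), with exact 95% intervals of counting error. The strong line falls from 43.6 to 14.4 across the classes, and the weak line climbs from 29.0 to 58.2.

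Among chromosomes, the ratio of combination to OTS186935 peaks was lowest on chromosome 13, at 35.2 per 100 (30.1 to 40.9), followed by the gene-rich chromosomes 19 (40.7; 37.99 to 43.5), 22 (41.2; 37.5 to 45.1) and 17 (44.4; 41.6 to 47.4). It was highest on chromosomes 6 (55.5; 52.3 to 58.9) and 4 (54.1; 50.5 to 57.8). The intervals of 4 chromosomes lay below the genome-wide 48.9 and those of 4 above it, and the other 15 chromosomes held it within their interval. Chromosomes that are neighbours in this order mostly had overlapping intervals. Chromosome 13 is gene-poor and had the fewest peaks per Mb in the pair, 5.77 with OTS186935 and 2.03 with the combination. Its low ratio did not hold with lists of equal length, where it was 102 per 100 and chromosome 19 had 83.2. Strong peaks gave 39.2 per 100 on chromosome 4, 12.2 on chromosome 19 and 11.6 (8 of 69 peaks) on chromosome 13. Over the 23 chromosomes the rank correlation of gene density with the ratio was -0.40, and with the strong-peak ratio -0.58. This describes chromosomes of the same 2 libraries and is no test.

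In 1 Mb bins the 2 lists followed each other closely. Of 3043 bins, 2859 held a peak of the pair, 2791 held peaks of both, 63 of OTS186935 only and 5 of the combination only. The median was 14 OTS186935 and 7 combination peaks per bin. The rank correlation of the 2 counts over the 2859 bins was 0.90, a description over bins that share gene content and mappable length. The combination had more peaks than OTS186935 in 100 bins. Among 839 bins with 40 or more peaks in both lists together, the median ratio was 46.8 per 100, and 70 bins (8.34%) lay at least 1.5-fold below the genome-wide ratio and 26 (3.10%) at least 1.5-fold above it.

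The 5 bins of lowest ratio held 8 to 46 genes. The first Mb of chromosome 11, with 46 genes that include HRAS, the interferon-induced IFITM genes and IRF7, had 57 peaks in DMSO, 48 with OTS186935, 31 under doxorubicin and 8 in the combination. At chr17:31000001-32000000, which holds NF1, a negative regulator of RAS, and SUZ12, a subunit of the H3K27 methyltransferase complex, the counts were 41, 42, 27 and 7. At chr9:130000001-131000000, with the kinase gene ABL1, they were 75, 60, 37 and 11. The bin chr16:70000001-71000000, with AARS1 and SF3B3, had 31, 38, 16 and 7, and chr8:143000001-144000000, with 32 genes that include PLEC and SCRIB, had 77, 62, 44 and 13. The combination had the fewest peaks of the 4 libraries in each of these bins, which were chosen for a low ratio, and its list was the shortest. Strong peaks in the 5 bins numbered 4 to 12 with OTS186935 and 0 to 2 with the combination.

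The 5 bins of highest ratio held 3 to 8 genes. At chr6:7000001-8000000, with the desmosome gene DSP and the growth factor gene BMP6, there were 46 peaks in DMSO, 25 with OTS186935, 33 under doxorubicin and 28 in the combination, a ratio of 112 (63.0 to 200.3). The bins of ROR2 on chromosome 9, RFX4 on chromosome 12, IGF2R on chromosome 6 and DNMT3A on chromosome 2 had ratios of 89.7, 88.0, 86.4 and 84.8. Their intervals were wide, 44.2 to 167.2 at IGF2R. In strong peaks these bins did not have more with the combination: the counts were 4 to 9 with OTS186935 and 1 to 3 with the combination.

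**Figure D4:**
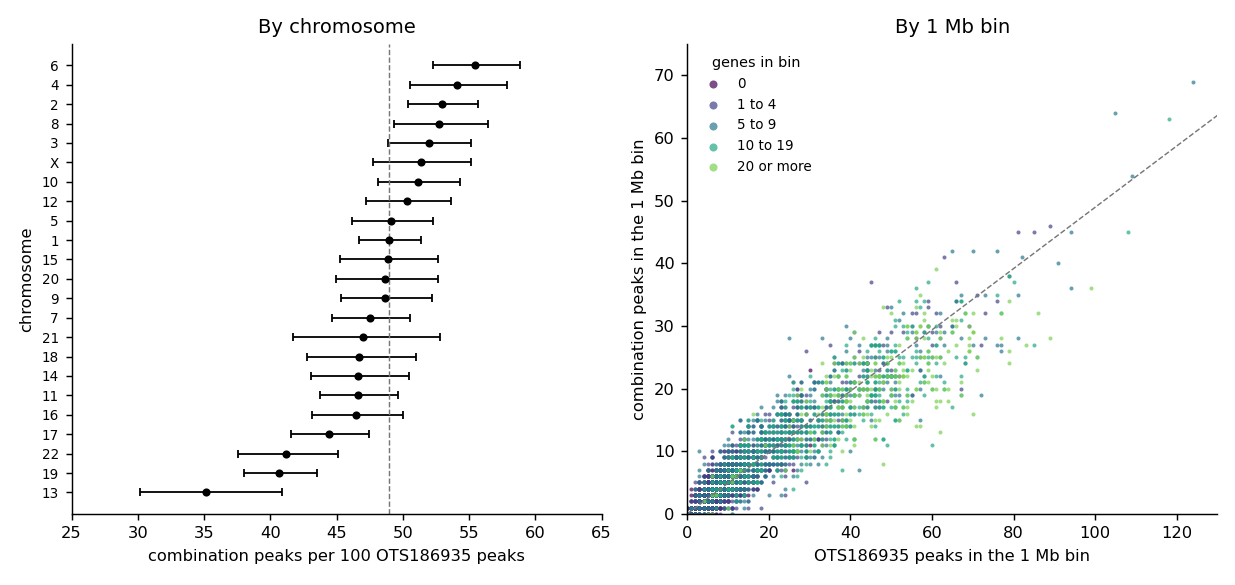
Left, combination peaks per 100 OTS186935 peaks on each chromosome with exact 95% intervals of counting error. The dashed line is the genome-wide 48.9, and chromosome 13, at 35.2, lies farthest from it. Right, peaks of each library in each 1 Mb bin, coloured by the number of protein-coding genes, with the dashed line at the genome-wide ratio.

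Genes were compared by windows reaching 1 kb to each side of the 2 annotated ends of each of 19821 protein-coding genes. A gene-end peak was found at 5722 genes (28.9%) with OTS186935 and at 2938 (14.8%) with the combination. It was present in both libraries at 2156 genes (10.9%), with OTS186935 only at 3566 (18.0%) and with the combination only at 782 (3.95%). A gene counted in both could have its 2 peaks at different ends, or at the same end without overlap. Of genes with an OTS186935 gene-end peak, 37.7% (36.4 to 38.9) had one with the combination. With lists of equal length the one-sided counts were near each other, 1543 with OTS186935 and 1449 with the combination. Among strong peaks they were 1059 and 119, with 102 genes in both. For 15812 genes with a known strand, the 5′ end had a peak at 3301 with OTS186935 and 1713 with the combination, and 37.4% (35.8 to 39.1) of the former were kept. The 3′ end had a peak at 1690 and 793, and 29.6% (27.5 to 31.9) were kept.

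Peaks at gene ends were shared more often than peaks elsewhere. Of OTS186935 peaks lying at a gene end, 33.9% (32.6 to 35.1) overlapped a combination peak, against 23.02% (22.5 to 23.5) inside gene bodies and 26.9% (26.3 to 27.4) outside genes. Gene-end peaks were also wider, with a median of 520 bp in the OTS186935 list, against 442 bp in gene bodies. The number of peaks was reduced to a like extent at the 3 positions, with 49.8, 47.3 and 50.6 combination peaks per 100 OTS186935 peaks. Strong peaks had 18.4 per 100 at gene ends, 21.2 in gene bodies and 26.8 outside genes.

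Promoters were compared by their CG content. Promoters of chromosome 8 were not used here. Of 15812 promoters, 597 (3.78%) overlapped a peak in both libraries, 964 (6.10%) with OTS186935 only and 229 (1.45%) with the combination only. By quintiles of CG count, 0 to 6, 7 to 17, 18 to 26, 27 to 34 and 35 to 69, the share of promoters with an OTS186935 peak was 5.28%, 15.1%, 11.7%, 11.02% and 6.75%. The share with a combination peak was 2.04%, 8.57%, 6.46%, 6.09% and 3.29% in the same order. Of promoters with an OTS186935 peak, the combination also had one in 22.1% (16.3 to 28.9), 39.1% (34.5 to 43.8), 45.6% (40.7 to 50.6), 41.7% (36.3 to 47.2) and 30.3% (24.1 to 37.2). The 3 middle quintiles thus had the higher shares in both libraries, while the overlap intervals of the 2 outer quintiles reached into each other. The TATA box letters TATAAA, searched on both strands, were in 9.72% of promoters with a peak in both libraries, 8.40% with OTS186935 only and 8.73% with the combination only, against 9.75% of all promoters. CCAAT, also on both strands, was in 31.5%, 33.0% and 34.1%, against 36.4% of all.

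Genes with a strong gene-end peak with OTS186935 and no combination peak in the window numbered 462. The 10 of highest fold, in order, were PCMTD2, ZNF311, PARP15, SCAND3, COX8C, OR2T10, ZNF799, TEX12, SPRY3 and TMLHE, of which the last pair share 1 peak between their 5′ ends. PCMTD2 had a fold of 8.80 with DMSO, 11.7 with OTS186935 and 6.26 with doxorubicin, and 44 fragments at the OTS186935 summit. Its peak lies 0.0732 Mb from the end of chromosome 20. PARP15, a member of the ADP-ribosyltransferase family, had a peak at its 5′ end (chr3:122577598-122578143) of 8.52-, 10.5- and 7.20-fold in the same order. ZNF311, a zinc finger gene of the extended MHC region, had 7.57, 10.8 and 6.30. TEX12, which encodes part of the synaptonemal complex of meiosis, had 6.15, 9.48 and 6.48. ZNF799 had 7.19 with DMSO and 9.71 with OTS186935 and no doxorubicin peak. All 10 therefore also had a DMSO peak and 9 a doxorubicin peak. The olfactory receptor gene OR2T10 was the one whose doxorubicin fold, 11.5, was above its OTS186935 fold, 9.88.

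The opposite kind, with a strong combination peak and no OTS186935 peak in the window, numbered 34 genes. The first 10 by fold were CTAGE1, NLRP1, C4orf36, LCE4A, ACOX2, PF4, SERPING1, ATP6V0A4 and TMEM213, which share a peak, and MICAL2. NLRP1, an inflammasome sensor gene, had 5.87-fold with DMSO, 5.18 with doxorubicin and 7.60 with the combination. PF4, which encodes platelet factor 4, had 11.05, 5.04 and 6.92, so its DMSO peak was the strongest of the 3. The peak between ATP6V0A4, a proton pump subunit gene, and TMEM213 had 6.49-fold with doxorubicin and 6.67 with the combination and was not listed with DMSO. SERPING1, the gene of the C1 inhibitor of complement, had 6.91 with the combination and no peak in the other libraries. MICAL2, which encodes an enzyme that oxidizes actin, had 5.47, 3.31 and 6.66. Summits in this group held 9 to 12 fragments, against 14 to 44 in the group above.

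Strong gene-end peaks in both libraries were found at 101 genes when each gene was given its peak of highest fold. With any strong peak counted, as above, the number was 102. By the lower of the 2 folds the leading gene was SCAF4, a regulator of transcript termination, with 9.62 in DMSO, 8.94 with OTS186935, 7.39 under doxorubicin and 10.98 in the combination. The combination summit there held 16 fragments and the OTS186935 summit 13. MEI4, needed for the DNA breaks of meiosis, had 8.68, 8.26, 7.20 and 9.42. COL12A1, a collagen gene, had 6.33, 8.02, 7.39 and 7.84 at its 3′ end (chr6:75085069-75085428 with OTS186935). The serotonin receptor gene HTR4 had 7.39, 10.5, 5.45 and 7.68. TDRD15, SLC45A2, ZNF772, LONRF1, PSKH2 and SLC25A51 completed the 10. Of the 10, SCAF4, MEI4, TDRD15, ZNF772 and LONRF1 had a higher fold with the combination, and the other 5 with OTS186935.

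The gene lists were read against 28.9% of all genes with a gene-end peak with OTS186935 and 14.8% with the combination. In break signalling and repair, few genes carried a peak on either side: 3 of 15 signalling genes with OTS186935 and 2 with the combination, 3 and 2 of 21 homologous recombination genes, and 2 and 2 of 17 end joining genes. H2AX itself had 4.07-fold with DMSO, 4.93 with OTS186935 and 4.30 with doxorubicin, and no combination peak. BRCC3, a deubiquitinase of the BRCA1-A complex, had 5.38-fold with OTS186935 and 4.65 with the combination, at separate peaks that did not overlap. RNF8, the ubiquitin ligase recruited to γH2AX, had a peak with the combination only, at 3.57-fold and 5 fragments. RAD54L, a recombination motor gene, had 5.50 and 4.94, also at separate peaks. APTX, which cleans blocked DNA ends, had 6.19 and 3.70 at overlapping peaks.

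The topoisomerase, drug response and mitosis lists held few genes with a gene-end peak, a lower share than over all genes with OTS186935 and 0 genes with the combination. Of 11 topoisomerase and end-cleansing genes, TOP1 (4.05-fold) and TOP1MT (3.14) had a peak with OTS186935, and 0 had one with the combination, while doxorubicin alone had 4 and DMSO 3. Of 14 drug response and efflux genes, the detoxification gene GSTP1 (4.66-fold), the carbonyl reductase gene CBR1 (4.30), whose product metabolizes doxorubicin, and NFE2L2 (3.98), the gene of the antioxidant regulator NRF2, had one with OTS186935, and 0 with the combination. Mitosis and replication licensing genes had 4 of 25, namely BUB1, MCM6, PLK1 and ORC6 at 3.16- to 4.30-fold, and 0. Among genes induced in arrest and apoptosis after DNA damage there were 7 of 20 and 3 of 20. BAX, an apoptosis gene, had 5.89-fold with OTS186935 and none with the combination. SESN2, a stress gene, had 5.48 with the combination and none with OTS186935. BBC3 and AEN had both.

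Of 17 genes altered in leiomyosarcoma, 7 had a gene-end peak with OTS186935 and 0 with the combination. Among all genes 28.9% and 14.8% had one, so a count of 0 in a list of 17 rests on few genes. The 7 included the tumour suppressor gene ATRX (4.30-fold), the corepressor gene NCOR1 (4.64), the Mediator subunit gene MED12 (4.83), MYOCD, TERT and FGFR1. Smooth muscle contractile genes had 10 of 20 and 5 of 20. Those in both were ITGA8, CALD1, DES and VCL, with desmin gene DES at 7.15-fold in DMSO, 5.80 with OTS186935, 4.10 under doxorubicin and 4.93 in the combination. MYLK, the gene of myosin light chain kinase, had a peak of 5.54-fold with the combination and none with OTS186935. ATRX also stands in the list of H3K9 methylation and heterochromatin genes, with 3 of 27 and 2 of 27, and MYOCD in both the smooth muscle and the leiomyosarcoma list.

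Immediate early genes had 6 of 26 with OTS186935 and 2 of 26 with the combination. CCN2, a matrix signalling gene, had 7.16- and 3.32-fold, and FOSL1, IER5 and BTG2 (5.19, 4.51 and 4.06) had none with the combination. Interferon response genes had 4 of 26 and 2 of 26, with IFITM1 in both (5.34- and 4.74-fold). Cytosolic ribosomal protein genes had 21 of 87 and 6 of 87, with 3 in both. RPS23 (7.28-fold), RPS19 (5.97), RPL22 (5.93) and RPL14 (5.27) had none with the combination. Ribosomal protein genes have many processed copies in the genome, so the placing of their reads is uncertain.

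In 4 lists the combination had as many genes with a peak or more. Neuronal genes had 6 of 12 with OTS186935 and 7 of 12 with the combination, with 5 in both. SYT1, a synaptic vesicle gene, had 6.55-fold in DMSO, 4.97 with OTS186935, 6.56 under doxorubicin and 6.11 in the combination. ELAVL4, a neuronal RNA-binding protein gene, had 5.37, 5.84, 6.43 and 5.84. Common fragile site genes had 3 of 20 and 6 of 20 at their ends. LRP1B, CNTNAP2 and THSD7B were in both, and those with the combination only included CSMD1 and WWOX, the latter at 6.22-fold. Replication-dependent histone genes had 17 of 69 in each library, but 6 genes were in both and 11 on each side alone. Histone genes are near-identical and lie close together, so 1 peak can serve several genes and their reads are uncertain in place. End joining genes, with 2 of 17 each, are given above. With 12 to 69 genes a list and no replicate, these counts rest on few peaks.

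In families of developmental and surface genes the combination had the fewer genes with a peak. Over all genes the shares were 28.9% with OTS186935 and 14.8% with the combination. HOX genes had 15 of 39 (38.5%) and 8 of 39 (20.5%), and collagen genes 17 of 44 (38.6%) and 9 of 44 (20.5%). Clustered protocadherin genes had 12 of 53 (22.6%) and 8 of 53 (15.1%), with 3 in both. Zinc finger genes of chromosome 19 had 62 of 246 (25.2%) and 33 of 246 (13.4%). Olfactory receptor genes had 24 of 389 (6.17%) and 12 of 389 (3.08%). Apart from the protocadherin genes, these drops were close in proportion to that over all genes. All 9 collagen genes of the combination also had a peak with OTS186935. Among them, COL6A6 had 10.7-fold with OTS186935 and 4.65 with the combination, while COL11A1 had 6.06 and 6.28. Epithelial genes had 9 of 15 and 5 of 15, the latter all within the former. GRHL2, an epithelial transcription factor gene, had 6.88 and 5.64.

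**Figure D5:**
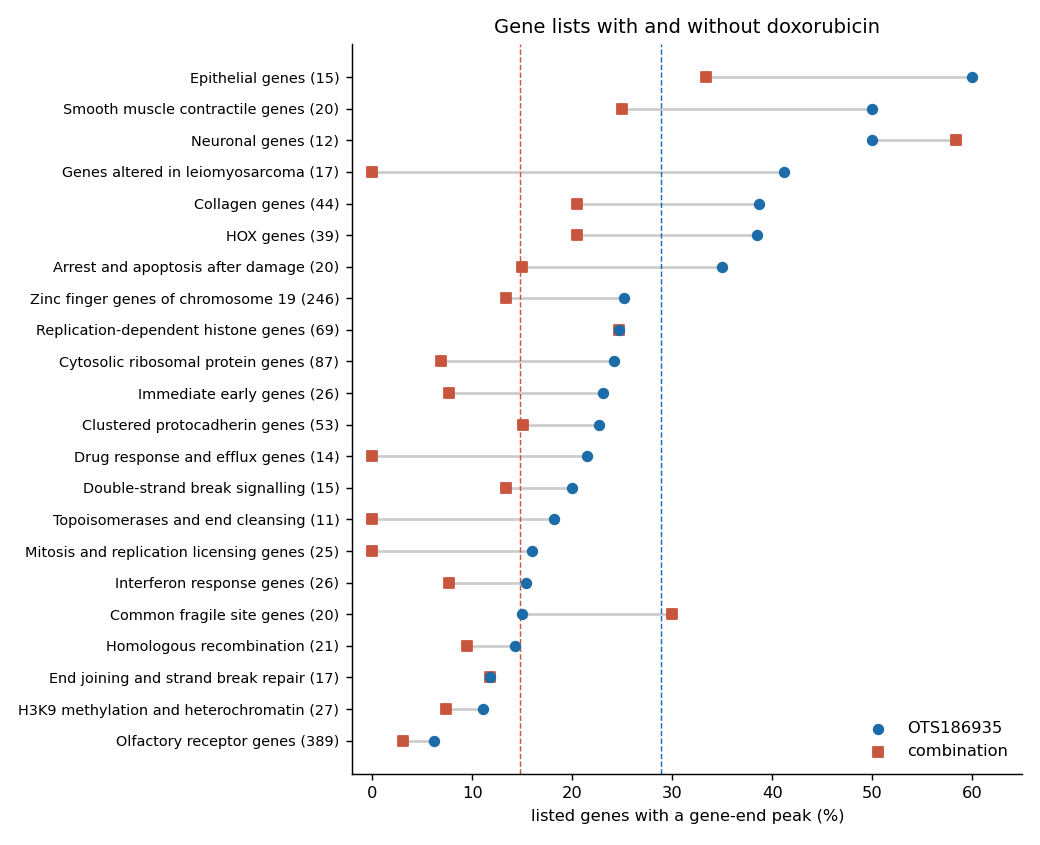
Percent of the genes of each list with a gene-end peak in the OTS186935 library (blue circles) and in the combination library (red squares), with the number of genes in parentheses. Dashed lines mark all protein-coding genes, at 28.9% and 14.8%. Neuronal and fragile site genes have the red square to the right of the blue circle, and in 4 lists the square stands at 0.

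Inside the bodies of fragile site genes, very long genes whose DNA tends to break when replication is slowed, the peaks were reduced as elsewhere. The 20 genes held 314 peaks in DMSO, 213 with OTS186935, 194 under doxorubicin and 106 in the combination. That was 49.8 combination peaks per 100 OTS186935 peaks (39.0 to 63.1), and 25.4% (19.7 to 31.7) of the OTS186935 peaks were kept, beside 48.9 and 25.7% over all peaks. Single genes varied. FHIT had 8 peaks with OTS186935 and 1 with the combination, and WWOX had 20 and 4. DLG2 had 14 and 13, and CSMD1 had 9 and 12.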

How the data were processed

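The data were 4 lists of γH2AX ChIP-seq peaks from SK-UT-1 cells, 1 list per library. Per the labels' protocols, chromatin was cross-linked, sonicated, precipitated with an antibody to H2A.X phosphorylated on its tail, and made into libraries with a ThruPLEX kit. Per the submitters' processing notes, Bowtie2 2.4.2, Picard 2.25.3, bedtools 2.30.0 and MACS2 2.2.7.1 were used with the build hg38. The role of each tool, its options and any input control were not given in the sources used here. Every deposited row gives a position, the authors' fold over local background (a ratio), −log10 p, −log10 q (1.0 or more in each list) and a score.

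Rows that overlapped or touched were merged, keeping the highest values, on chromosomes 1 to 22 and X. Total read counts were not used here, so summit fragments and local background were solved from the fold and −log10 p by the MACS2 definitions (tolerance 0.002), which matched 100% of rows. In 2109 OTS186935 and 1402 combination rows, more than 1 whole fragment count matched. Estimated fragments assume a genome of 2.7 Gb and a fragment length equal to each list's shortest row. Peaks were shared on an overlap of at least 1 bp. Gene ends and promoters came from RefSeq tables (GRCh38.p14), whose promoters matched 15812 of 19821 protein-coding genes by symbol and gave their strand; promoters of chromosome 8 were not used here, and 153 symbols on unplaced or alternate sequences were left out.

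Named genes were the 10 of highest fold per direction whose gene-end peak was strong (−log10 q at least 5) with none of the other library within the gene's windows, the 10 in both by the lower fold, and up to 4 per gene list by fold. Named bins were the 5 lowest and 5 highest ratios among those with at least 40 peaks. Members and all 22 gene lists were chosen with earlier results of these data known. Values of some list genes are not reported here. No test was made, because each condition has 1 library. Alternatives were −log10 q limits of 2 and 5, equal-length lists, a common −log10 p limit, joining within 1 kb, 50% reciprocal overlap, all contigs, 2.5 kb windows, bins of 500 kb and 5 Mb, and leaving out the outer 5 Mb of chromosomes. Merging, overlaps and the solving step were tested on simulated data against bedtools 2.31.1. Python 3.11.15, pandas 2.3.3 and scipy 1.17.1 were used.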

Additional observations from a re-analysis of the deposited data

How the results depend on the processing

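The combination list was the shorter at −log10 q limits of 2 and 5, with a common −log10 p limit, with rows joined within 1 kb and over all contigs; the strength of its peaks was not recomputed. Limits of depth apply throughout: most peaks rest on few fragments, and a peak missing from a list may lie just under its limit. No paired analysis was possible because each condition has 1 library. Of 114 values recomputed under 11 alternatives, 52 stayed within the counting interval of the reported value, or for counts within 1.5 times of it, and 62 did not; the cause was not tested beyond what each alternative's own construction shows.

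At a −log10 q of at least 5 there were 10592 OTS186935 and 2475 combination peaks, shared in 8.25% and 35.3%. Genes with a gene-end peak then numbered 1059 with OTS186935 only, 119 with the combination only and 102 in both. Combination peaks per 100 OTS186935 peaks were then 43.6 in bins with no gene, 14.4 in bins with 20 or more genes per Mb, and 11.6, 12.2, 13.4, 16.5, 25.9 and 39.2 on chromosomes 13, 19, 22, 17, 6 and 4. Median widths were 579.5 and 516 bp for shared and one-sided OTS186935 peaks and 507 and 417 bp for combination peaks.

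At a −log10 q of at least 2 the shares were 24.1% and 49.5%, the ratios 60.0 and 37.6 in bins of lowest and highest gene density, and 35.4, 35.3, 40.2 and 58.2 on chromosomes 19, 22, 17 and 4, with widths of 577, 446, 471 and 367 bp in the order above.

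With the OTS186935 list cut to 29213 peaks, the shares were 35.8% and 36.0%, and genes with OTS186935 only and combination only numbered 1543 and 1449. Ratios were 104.3 and 91.0 by density and 102.2, 83.2, 90.1, 96.9, 103.2 and 113.3 on chromosomes 13, 19, 22, 17, 6 and 4, so chromosome 13 was no longer the lowest of these. Widths were 593, 447, 464 and 373 bp.

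A common −log10 p limit of 3.08 gave 52.0% of combination peaks shared and a ratio of 45.1 in the densest bins. Joining rows within 1 kb gave 26.2% of OTS186935 peaks shared and widths of 574, 428 and 457 bp for shared and one-sided OTS186935 and shared combination peaks. An overlap of 50% of both peaks gave shares of 20.2% and 41.3% and widths of 528, 432, 463 and 367 bp. Windows of 2.5 kb gave 3641 genes in both. Bins of 5 Mb without a gene had a ratio of 65.3. The all-contig lists, bins of 500 kb and the lists without chromosome ends gave no value outside these bounds.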

Other observations

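Some stretches had OTS186935 peaks and no combination peak at all. Of the 1 Mb bins, 17 held at least 5 OTS186935 peaks and 0 combination peaks, together 99 peaks with DMSO, 109 with OTS186935 and 68 with doxorubicin. Up to 4 protein-coding genes lay in 14 of the 17 (82.4%) and none in 5, beside 77.9% of the 945 bins with 5 to 11 OTS186935 peaks and 53.1% of all bins, so these bins were close in gene content to others with as few peaks. The bin chr5:119000001-120000000 had 9 peaks with DMSO, 11 with OTS186935 and 12 with doxorubicin. The first Mb of chromosome 1 had 8, 11 and 8. At chr7:83000001-84000000 there were 11, 8 and 5, and at chr11:55000001-56000000, which lies in an olfactory receptor cluster, 8, 6 and 3. These bins were picked after their values were seen, and a count of 0 beside 5 to 11 peaks rests on few peaks.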
